A study of Homo sapiens with 20 samples.

Results

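At 492 sites, STAG2 peaks were listed in both WT libraries and in neither STAG2-KD library, while STAG1 peaks were listed in all 4 STAG1 libraries. The sites were chosen by these peak calls, from 130122 merged STAG2 sites on chromosomes 1 to 22 and X, of which 70129 had a STAG2 peak in both WT libraries. They made up 14.1% of the 3492 sites that lost STAG2 by this rule. A further 129 lost sites acquired STAG1, with a STAG1 peak only in the STAG2-KD libraries. Another 1424 had no STAG1 peak in any list, and 1447 had STAG1 in another combination. Sites with STAG2 and STAG1 in every list, 44638 in all, served as retained sites.

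The chromatin came from M14, an established human melanoma line that stably carries 1 doxycycline-inducible shRNA against STAG2. WT cells carried the construct without doxycycline, and STAG2-KD cells had received doxycycline for 5 days. For replicate set 2 this time comes from the study's methods, as its labels do not state it. ChIP-seq with antibodies against STAG1, STAG2, CTCF and SMC1A gave 16 peak lists, 1 for each antibody, condition and replicate set. Set 1 was size selected with beads and called at a q-value limit, and set 2 was size selected on a gel and called at a p-value limit, so the sets differ in preparation and threshold. On chromosomes 1 to 22 and X the lists held 58418 to 150282 peaks. STAG2, the target of the shRNA, had 79048 peaks in WT and 58418 in STAG2-KD in set 1, and 118984 and 106135 in set 2. The labels do not say whether the sets came from separate cultures, and p-values then measure only the spread between these libraries.

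Cohesin is a ring-shaped complex that extrudes and holds DNA loops. SMC1A is a core subunit of the ring, and each ring carries either STAG1 or STAG2, which are close relatives. CTCF is a zinc finger protein that binds a long GC-rich motif and stops moving cohesin, so that cohesin peaks often lie on CTCF sites. STAG1-cohesin is known to favour stable CTCF sites, whereas STAG2-cohesin also occupies CTCF-free sites.

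The strongest sites are shown first, as they carry the clearest loss of STAG2. By the sum of their ranks in the WT STAG2 lists 5 sites led, and 4 of them are printed as 121 bases around the WT STAG2 summit of set 1. All sequences are the plus strand of hg19, written 5′ to 3′, and capitals mark matches to the CTCF motif CCNNNAGNNGGC on either strand.
PRDM2 neighbouring site, chr1:14024404-14024524: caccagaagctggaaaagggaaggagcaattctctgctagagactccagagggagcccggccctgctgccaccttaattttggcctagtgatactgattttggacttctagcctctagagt
SV2C intron site, chr5:75505242-75505362: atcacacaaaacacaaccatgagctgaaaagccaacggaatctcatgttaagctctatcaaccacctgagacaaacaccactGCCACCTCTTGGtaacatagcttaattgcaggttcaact
MED23 intron site, chr6:131918705-131918825: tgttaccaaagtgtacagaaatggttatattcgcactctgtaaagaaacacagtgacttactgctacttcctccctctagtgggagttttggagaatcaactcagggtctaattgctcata
PRSS22 site, chr16:2904852-2904972: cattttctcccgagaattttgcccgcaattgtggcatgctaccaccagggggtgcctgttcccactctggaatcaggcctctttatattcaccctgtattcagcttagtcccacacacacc

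The next 3 had the highest CTCF peaks of the group over the 4 CTCF lists, by mean percentile. The other such site, at MATN4, overlaps a UTR and its sequence is not shown.
TRPM6 intron site, chr9:77385987-77386107: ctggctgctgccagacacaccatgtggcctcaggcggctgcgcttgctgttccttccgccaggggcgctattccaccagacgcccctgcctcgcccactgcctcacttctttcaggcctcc
KRTAP5-5 neighbouring site, chr11:1661416-1661536: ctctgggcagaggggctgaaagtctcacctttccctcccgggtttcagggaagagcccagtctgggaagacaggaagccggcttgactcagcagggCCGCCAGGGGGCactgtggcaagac
MPP2 intron site, chr17:41957876-41957996: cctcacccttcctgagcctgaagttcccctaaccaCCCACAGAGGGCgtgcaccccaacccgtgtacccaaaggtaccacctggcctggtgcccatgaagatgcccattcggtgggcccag

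The last set holds sites at which STAG1 rose or fell most with the same sign in both sets. The sites near PRDM2 and in SV2C, shown above, also belong to the 6 largest falls.
CHL1 neighbouring site (fall), chr3:94385-94505: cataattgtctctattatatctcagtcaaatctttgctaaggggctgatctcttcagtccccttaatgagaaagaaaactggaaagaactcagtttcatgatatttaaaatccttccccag
ATXN7L1 intron site (fall), chr7:105378755-105378875: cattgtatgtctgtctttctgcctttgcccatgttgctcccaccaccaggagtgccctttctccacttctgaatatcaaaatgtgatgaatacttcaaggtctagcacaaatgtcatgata
CDH5 neighbouring site (fall), chr16:66149378-66149498: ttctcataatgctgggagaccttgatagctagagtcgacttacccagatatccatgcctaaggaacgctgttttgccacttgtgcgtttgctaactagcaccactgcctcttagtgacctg
NID1 neighbouring site (rise), chr1:236254711-236254831: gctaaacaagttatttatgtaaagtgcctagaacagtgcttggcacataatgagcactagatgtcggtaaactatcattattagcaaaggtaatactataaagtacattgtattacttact
GPR35 neighbouring site (rise), chr2:241580516-241580636: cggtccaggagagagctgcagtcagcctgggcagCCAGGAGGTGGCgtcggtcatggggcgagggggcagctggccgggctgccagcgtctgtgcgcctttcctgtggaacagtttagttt
LINC02021 intron site (rise), chr3:129863617-129863737: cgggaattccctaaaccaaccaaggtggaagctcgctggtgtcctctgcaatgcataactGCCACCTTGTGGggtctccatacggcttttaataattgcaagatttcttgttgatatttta
DPY19L2P1 site (rise), chr7:35225533-35225653: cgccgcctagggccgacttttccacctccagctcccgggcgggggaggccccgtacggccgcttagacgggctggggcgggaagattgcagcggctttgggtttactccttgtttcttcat

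A capitalised motif is present in 5 of the windows shown. A window without one lacks only these exact letters. Over all 492 sites 20.9% had the motif within 100 bp of the summit, as shown in the bar plots of position and motif. The share was 24.9% over the 70129 sites with STAG2 in both WT libraries and 32.6% over retained sites. In windows 5 kb from the 492 summits it was 2.64%.

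The values that selected the sites are described here without a test. WT STAG2 fold enrichment, which is the pileup over the expected background at the summit, had a median of 5.00 in set 1 and 4.05 in set 2. These medians lay at the 24.8th and 41.7th percentile of their lists. In reads, recovered from the fold enrichment and p-value, the median summit held 17 reads in set 1 and 22 in set 2. At the WT local background, a STAG2-KD peak would have needed about 9.92 reads in set 1 and 10.2 in set 2 to be listed. The WT level exceeded this limit by a median factor of 1.52 in set 1 and 2.11 in set 2. In set 1 the factor was under 1.5 at 219 of the 492 sites, and in set 2 at 36. At those sites a fall in signal of less than 1.5 times would have taken the peak off the list.

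Just inside the rule were sites in TMEM39A, near BARX2 and near PLXNC1. Their WT STAG2 fold enrichments in sets 1 and 2 were 3.31 and 2.12 at TMEM39A, 4.25 and 1.84 near BARX2, and 5.14 and 1.84 near PLXNC1. Just outside it were sites with STAG1 in all lists and a STAG2-KD peak in set 2 only. The weakest of these, at chr12:64938444-64939096, chr15:74435846-74436500 and chr3:147658156-147658654, had STAG2-KD fold enrichments of 1.66, 1.68 and 1.7. Of 5910 sites held out by 1 STAG2-KD peak, 5879 had that peak in set 2 and 31 in set 1.

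The membership depended on the calling threshold. At a −log10 q-value of at least 2 in every list 697 sites met the rule, of which 433 of the 492 were covered. At a −log10 q-value of at least 5, 783 sites met it and covered 105 of the 492. With equal numbers of the strongest peaks from every list there were 690 sites, covering only 19 of the 492. Under these last settings the rule therefore picked mostly other sites. Within set 1 alone 7279 sites met the rule, and within set 2 alone 4155.

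STAG1, the paralog that stayed, was described from its values in each list, since the rule used its presence. In set 1 the median STAG1 fold enrichment was 5.54 in WT and 5.38 in STAG2-KD. In set 2 it was 4.23 in WT and 3.90 in STAG2-KD. Its median summit held 19 and 17 reads in set 1, and 25 and 22 reads in set 2, with STAG2-KD read depths of 0.861 and 0.908 times WT. The group medians were thus slightly lower in STAG2-KD in both sets, while the scaled summit pileup of set 1 had a median of 9.15 in WT and 9.51 in STAG2-KD. Retained sites of like level were the 2100 with a WT STAG2 percentile between the 10th and 90th percentile of the 492, in both lists. Median STAG1 there went from 5.26 to 7.76 in set 1 and from 5.07 to 5.66 in set 2. The match was approximate, as their median WT STAG2 percentiles were 29.5 and 48.9, against 24.8 and 41.7 at the 492. Their WT STAG2 summits held 20 and 31 reads against 17 and 22, and their median width was 690 bp against 414. The groups were also split by STAG2-KD signal. Retained sites had to hold a STAG2 peak in both STAG2-KD lists, and the 492 in neither. At the retained sites of like level, median STAG2 went from 5.38 to 5.12 in set 1 and from 4.62 to 5.17 in set 2. How much of the STAG1 contrast follows from this split was not tested.

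**Figure D1:**
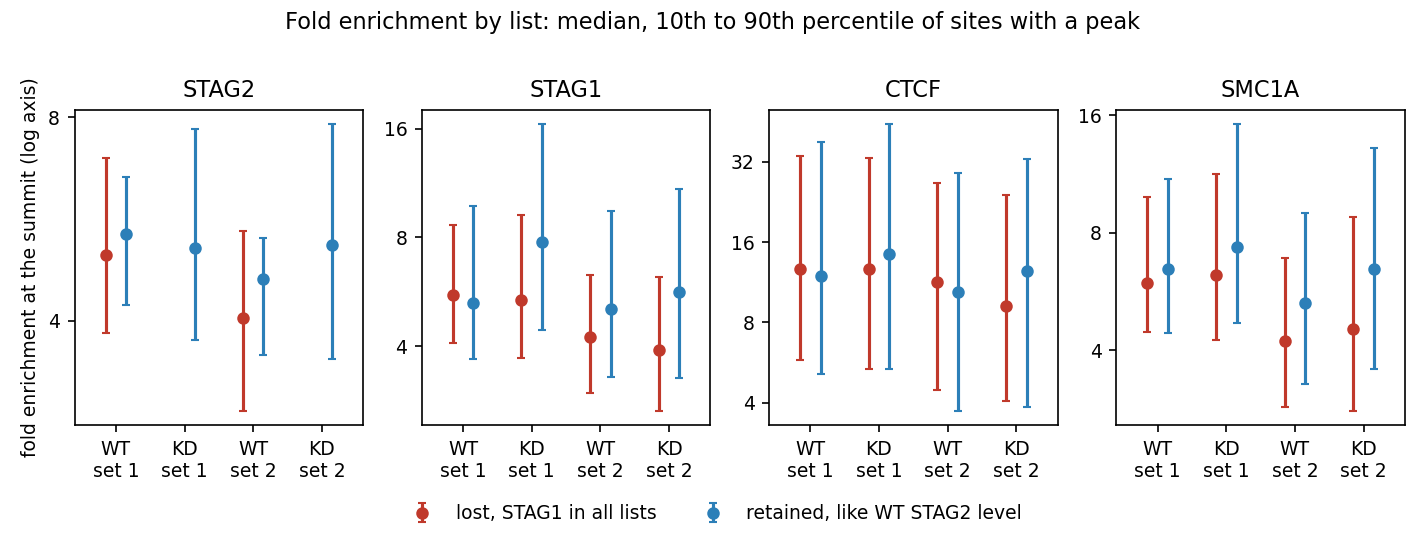
Fold enrichment at the summit (log axis) in each list, as the median (point) and the 10th to 90th percentile (bar) of the sites with a peak, for lost sites with STAG1 in all lists and for retained sites of like WT STAG2 level. STAG1 at the lost sites goes from 5.54 to 5.38 in set 1 and from 4.23 to 3.90 in set 2, while at the retained sites it goes from 5.26 to 7.76 and from 5.07 to 5.66. The groups were split by their STAG2-KD peaks, so the contrast is not independent of the choice of sites.

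STAG1 fold enrichment was higher in STAG2-KD in both sets at 144 of the 492 sites, lower in both at 180, and mixed at 168. At the 2100 retained sites of like level, 1095 were higher in both sets and 259 were lower. As deposited, the median log2 ratio of STAG2-KD to WT at the 492 sites was 0.00029 in set 1 and −0.089 in set 2. The corresponding medians at the retained sites of like level were 0.49 and 0.10. As those sites were required to hold STAG2-KD peaks, these contrasts are not independent of the choice of sites.

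**Figure D2:**
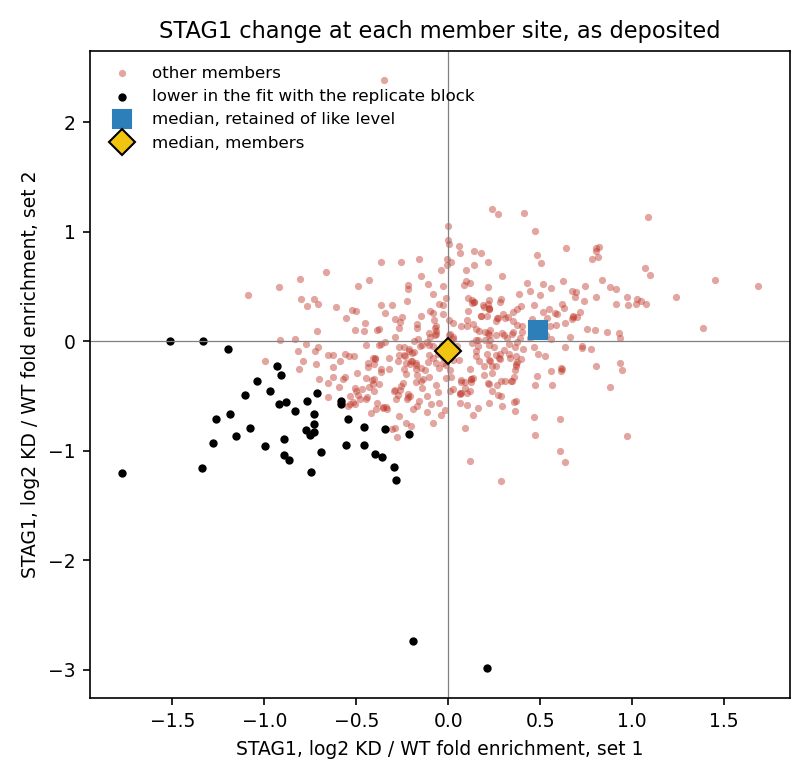
Log2 ratio of STAG2-KD to WT STAG1 fold enrichment as deposited, set 1 on the horizontal and set 2 on the vertical axis, with 1 point for each of the 492 sites. The median of the 492 sites lies at 0.00029 and −0.089, the median of the retained sites of like level at 0.49 and 0.10, and the 45 sites lower in the fit with the replicate block lie at the lower left in 43 cases. The 2 groups were split by their STAG2-KD peaks. The points of KLHDC8A and TBC1D8 lie far down because their WT value of set 2 belongs to a stronger overlapping peak.

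To put the sites on a common scale, log2 fold enrichment was centred on each list's median and fitted with limma over 54417 STAG1 sites, which represent 491 of the 492. The median STAG2-KD minus WT difference was −0.35 at these sites, −0.07 over all sites and 0.01 at the retained sites of like level. Without centring the median was −0.06 against 0.22 over all sites, since list medians rose by 0.29 on the log2 scale. With quantile normalization it was −0.18 against 0.0037. The median centred difference was −0.52 in set 1 and −0.14 in set 2. The rule itself required a STAG1 peak in the STAG2-KD lists, so sites at which STAG1 fell below the peak limit could not be among the 492.

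The STAG1 fit called 0 of the 491 sites and 0 of all sites at an adjusted p under 0.05. At an unadjusted p under 0.05, 112 of the 491 sites (22.8%) were lower in STAG2-KD, against 8.48% of all sites, and 3 were higher. With the replicate block, 45 (9.16%) were lower at an adjusted p under 0.05, against 5.32% of all sites. None of the 491 were higher, against 2.90% of all sites. As the rule used the STAG1 lists, nothing is read from these counts. The 45 sites fell by a median of 1.03 on the centred log2 scale, and 5 of them were promoter sites.

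Among the strongest sites, the one 2.2 kb from a PRDM2 start (chr1:14024188-14024781, between genes) had WT STAG2 fold enrichments of 10.4 and 7.76. PRDM2 encodes a histone methyltransferase. Its STAG1 fold enrichment was 12.4 in WT and 3.64 in STAG2-KD in set 1, and 11.7 and 5.10 in set 2. Both STAG2-KD values lay below both WT values. The centred difference was −1.78 ± 0.35 (SE), with limma's adjusted p = 0.0861 without and 1.495e-06 with the replicate block. Among the named sites this one also had the largest STAG1 fall, so these p-values are a description. The p-value with the block also rests on a spread shared over all sites. CTCF at this site went from 17.5 to 9.93 in set 1 and from 19.1 to 5.41 in set 2, and SMC1A from 9.75 to 6.64 and from 7.71 to 3.64. All 3 proteins were thus lower in STAG2-KD in each set.

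In an intron of SV2C, which encodes a synaptic vesicle protein (chr5:75505058-75505568), WT STAG2 stood at 12.5 and 7.12. STAG1 fold enrichment went from 16.8 to 7.53 in set 1 and from 8.99 to 4.93 in set 2. The fall was present in each set, with both STAG2-KD libraries below both WT libraries. Limma gave a difference of −1.30 ± 0.31 (SE), with an adjusted p = 0.107 without and 0.000503 with the replicate block. This site also belongs to the largest STAG1 falls, so these STAG1 p-values are a description too. CTCF went from 17.4 to 4.48 in set 1 and from 11.8 to 7.37 in set 2 (−1.39 on the centred log2 scale, limma's adjusted p = 0.00424 with the replicate block). SMC1A was listed here in WT only, at 4.45 and 4.44.

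In an intron of MED23, a subunit of the Mediator complex (chr6:131918557-131919016), WT STAG2 was 10.2 and 7.98. STAG1 changed from 10.1 to 4.79 in set 1 and from 5.89 to 3.40 in set 2. At PRSS22, which encodes a serine protease (chr16:2904625-2905278, a promoter by annotation), STAG2 was 10.5 and 8.63 in WT and STAG1 went from 8.89 to 4.79 and from 5.89 to 3.16. STAG1 was lower in STAG2-KD in each set at both sites, with limma's adjusted p = 0.120 and 0.122, and 0.00215 and 0.00331 with the replicate block. The fifth strong site, in an intron of TSNARE1, went against this order in set 1, with STAG1 at 8.28 in WT and 8.61 in STAG2-KD. In set 2 it was 6.08 and 5.42.

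The remaining members of the 6 largest STAG1 falls lay in introns of TBCA, a tubulin folding cofactor, and ATXN7L1, and between genes nearest to CHL1 and CDH5. These sites were chosen for this difference, so their p-values are a description. STAG1 at the site nearest CDH5 went from 7.14 to 2.83 in set 1 and from 5.00 to 2.24 in set 2 (−1.54 ± 0.30 SE, adjusted p = 0.000132 with the replicate block). All 6 passed the limma test with the block, at adjusted p of 1.495e-06 to 0.00273, and none passed without it, at 0.0861 to 0.119. At 3 of the 6 no list held an SMC1A peak, and the site nearest CHL1 had no CTCF peak either.

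On the centred log2 scale the 6 largest rises, at 0.55 to 0.82, were smaller than the 6 largest falls, at −1.78 to −1.27. Centring takes off the 0.29 by which list medians rose in STAG2-KD. As deposited, the rises were therefore larger and the falls smaller. The largest was nearest GPR35, a G protein-coupled receptor gene (chr2:241580428-241580795). STAG1 there was 5.24 in WT and 11.1 in STAG2-KD in set 1, and 2.76 and 6.07 in set 2. At the site nearest NID1, which encodes a basement membrane protein, STAG1 went from 5.29 to 14.4 and from 5.71 to 8.39, and CTCF was listed in WT only, at 4.89 and 5.52. The others lay in LINC02021, at DPY19L2P1, at TOMM20L and in a coding exon of GDF6, which encodes a BMP-family ligand. None passed the limma test, with adjusted p of 0.266 to 0.472 without and 0.0570 to 0.245 with the replicate block.

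CTCF, which the rule did not use, was listed at most of the sites. CTCF peaks were found at 84.8% and 93.9% of the 492 sites in WT of sets 1 and 2, and at 81.1% and 90% in STAG2-KD. At 383 sites (77.8%) CTCF was listed in all 4 lists, and at 27 it was in none. The CTCF share thus exceeded that of lost sites without STAG1 by 65.4 ± 1.62 percentage points (SD over 4 libraries). It exceeded that of lost sites that acquired STAG1 by 32.4 ± 5.11 points. Against retained sites of like WT STAG2 level it was 5.02 ± 2.58 points higher, and against all retained sites 8.09 ± 4.48 points lower. Each of these differences had the same sign in 4 of 4 libraries, which come from 2 sets and are not independent of each other. The two-sided exact sign-flip test over the libraries gave p = 0.125 for each, also after Benjamini-Hochberg adjustment over 8 comparisons, which is the smallest it can give. The groups were defined by STAG1 and STAG2 peaks, and cohesin peaks often lie on CTCF sites. The differences in CTCF share are thus not independent of the choice of sites, and how much follows from it was not tested.

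SMC1A, the core ring subunit, was listed less often. Its peaks were found at 48.4% and 70.3% of the sites in WT of sets 1 and 2, and at 47.0% and 65.4% in STAG2-KD. SMC1A was in all 4 lists at 179 sites (36.4%), in some at 203 and in none at 110. The median SMC1A summit held 12.5 reads in WT of set 1, and the fewest reads of a listed SMC1A peak at the genome background were 7. Against retained sites of like level, which were somewhat stronger in WT STAG2, the share was 28.8 ± 6.0 points lower (SD, 4 of 4 libraries). Against lost sites without STAG1 it was 27.7 ± 11.2 points higher. The same exact test gave p = 0.125 for both. The groups were defined by STAG peaks, so the share of SMC1A, part of the same ring, is not independent of the choice.

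Both shares were slightly lower in STAG2-KD in each set, and the design is too small for a test of this to pass its threshold. For CTCF the mean share was 89.3% ± 6.47 in WT and 85.6% ± 6.32 in STAG2-KD (SD, n = 2), with differences of −3.66 and −3.86 points within sets 1 and 2. For SMC1A it was 59.4% ± 15.5 and 56.2% ± 13.1, with differences of −1.42 and −4.88 points. By an exact permutation test, two-sided, p was 0.667 for each (1 after Benjamini-Hochberg adjustment over 10 comparisons), and its smallest p is 0.333. Paired by set, the exact sign-flip test gave p = 0.5, its smallest. With equal numbers of the strongest peaks from every list, where the rule gives 690 mostly other sites, the CTCF share was 70.3% and 75.7% in WT and 64.2% and 68.0% in STAG2-KD. The SMC1A share was then 51.3% and 54.9% in WT and 43.9% and 47.2% in STAG2-KD. Both WT libraries then lay above both STAG2-KD libraries, with mean changes of −6.88 and −7.54 points and p at its smallest of 0.333. In the main lists the spread came mostly from the 2 sets, whose WT libraries differed by more than WT and STAG2-KD did. With equal numbers of the strongest peaks, the WT libraries of the 2 sets differed by less than WT and STAG2-KD did.

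Followed site by site, WT SMC1A peaks were mostly still listed after STAG2 KD. Of the sites with a WT SMC1A peak, 183 of 238 (76.9%) had one in STAG2-KD in set 1 and 290 of 346 (83.8%) in set 2. At lost sites without STAG1 the numbers were 67 of 299 (22.4%) and 380 of 828 (45.9%). At retained sites of like level 95% and 98.4% were still listed. WT SMC1A peaks were also stronger where STAG1 was present, with a median fold enrichment of 5.93 and 4.23 against 4.53 and 3.31 at lost sites without STAG1. The part of peak strength in the shares still listed was not tested.

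WT CTCF peaks were still listed at 91.8% and 95.2% of these sites, against 75.4% and 71.7% of lost sites without STAG1. The difference from lost sites without STAG1 was 46.2 ± 11.7 points for SMC1A and 20.0 ± 5.01 points for CTCF (SD, 2 of 2 sets). The rule required STAG1 peaks in STAG2-KD, while the compared sites had neither STAG1 nor STAG2 peaks there. As STAG proteins and SMC1A belong to the same ring, the SMC1A difference is not independent of the choice of sites. How much of either difference follows from that choice was not tested. The exact sign-flip test over 2 sets cannot go below 0.5 and gave that value for both. In STAG2-KD, SMC1A peaks also appeared at 48 of 254 sites that had none in WT in set 1, and at 32 of 146 in set 2.

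**Figure D3:**
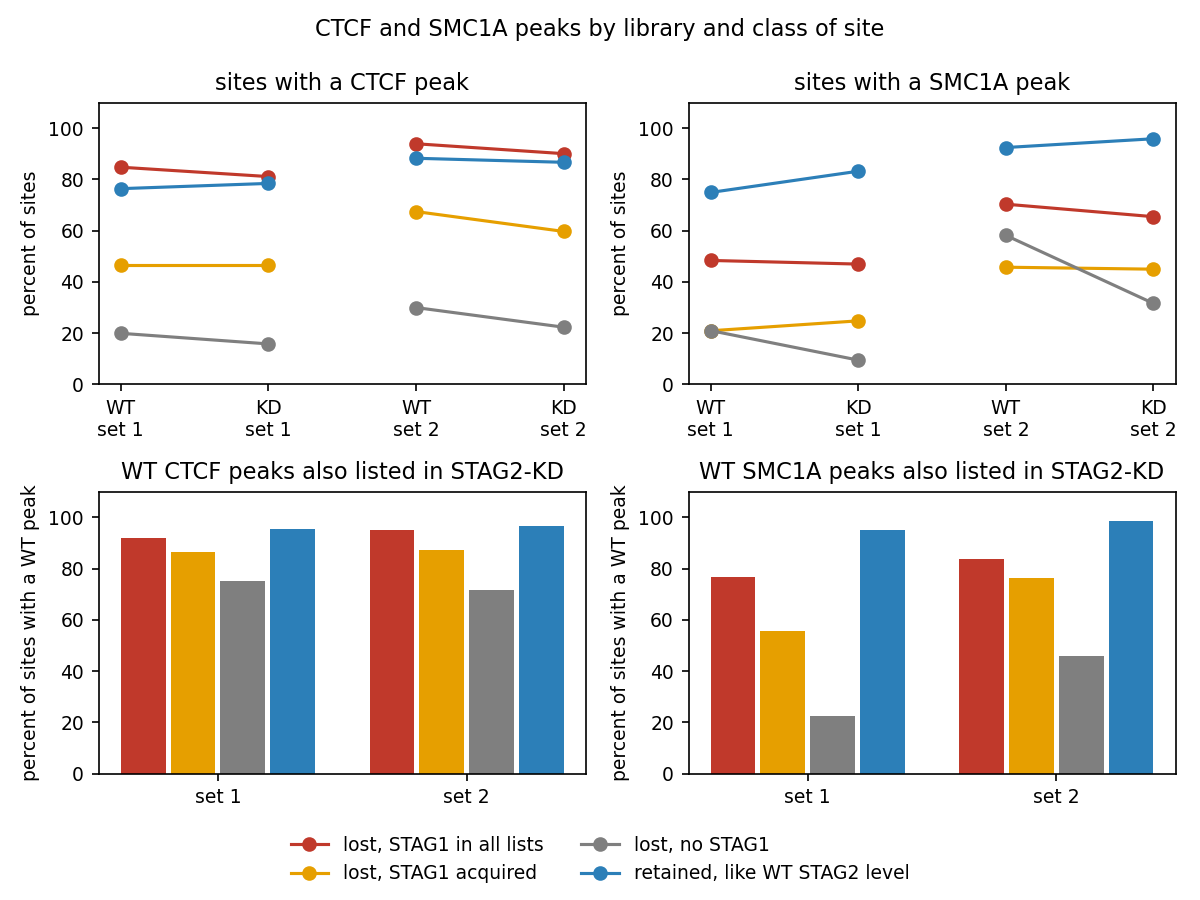
Top, percent of sites with a CTCF or SMC1A peak in each library, with lines joining WT and STAG2-KD of a set. Bottom, percent of sites with a WT peak that also had one in STAG2-KD, by set. Lost sites with STAG1 in all lists keep 76.9% and 83.8% of their WT SMC1A peaks, lost sites without STAG1 22.4% and 45.9%.

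CTCF strength could be fitted at 385 sites, those that overlapped a merged CTCF site with a peak in all 4 CTCF lists. Not every peak of a merged site need overlap the STAG2 site, so this number exceeds the 383 above. Medians over such sites are no measure of all 492, as a site whose CTCF was lost is not among them. Their median centred difference was −0.27 on the log2 scale against −0.07 over 69505 CTCF sites, and −0.20 against 0.01 without centring. It was −0.27 in set 1 and −0.24 in set 2. Limma without the replicate block called 0 of the 385 and 0 of all sites. At an unadjusted p under 0.05, 75 of the 385 (19.5%) were lower, against 7.90% of all sites. With the block 65 (16.9%) were lower, against 8.72% of all sites, and 6 (1.56%) were higher, against 4.79%.

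CTCF was also lower at other lost sites. As deposited, CTCF was lower in both sets at 52.0% of the 383 sites with CTCF in all lists, at 51.0% of 51 lost sites that acquired STAG1 and at 74.8% of 210 lost sites without STAG1. The median log2 ratios in sets 1 and 2 were −0.13 and −0.23 at the 383 sites, and −0.37 and −0.42 at lost sites without STAG1. Of the 65, 14 were also called lower for STAG1 with the block, as were 45 (9.16%) of the 491 sites fitted for STAG1. The overlap of these calls over all sites was not counted, so nothing is read from it. Sites with the strongest CTCF lay in introns of TRPM6, a magnesium channel gene, and MPP2, at MATN4, a matrilin gene, and between genes 10.5 kb from a KRTAP5-5 start. CTCF fold enrichment at the TRPM6 site was 60.1 in WT and 72.4 in STAG2-KD in set 1, and 45.8 and 49.7 in set 2. The KRTAP5-5 site had 78.3 and 58.9 in set 1 and 50.9 and 36.0 in set 2, and was the only one of the 4 called lower with the block (adjusted p = 0.0467). WT STAG2 at these 4 sites was between 3.88 and 5.18 in the 2 sets.

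SMC1A strength could be fitted at 184 sites, those that overlapped a merged SMC1A site with a peak in all 4 SMC1A lists. The median centred difference was −0.19 against −0.06 over 55715 SMC1A sites, but without centring it was 0.08 against 0.21, so its direction depended on the scaling. The difference from all sites was −0.13 with and without centring, which moves every site of a list alike, and −0.028 with quantile normalization. Limma without the block called 0 of the 184, against 0.355% of all sites lower and 0.228% higher. At an unadjusted p under 0.05, 31 (16.8%) were lower against 10.9% of all sites. With the block, 16 (8.70%) were lower against 6.21%, and 2 (1.09%) were higher against 4.37%. The sites near PRDM2, in MED23 and at PRSS22 were among the 16, with differences of −1.08, −0.85 and −1.0.

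CTCF and its motif went together within the group. The motif was found at 24.3% of the 383 sites with CTCF in all lists, at 12.2% of the 82 with CTCF in some, and at 0 of the 27 without CTCF. At the 179 sites with SMC1A in all lists the motif share was 31.3%, and at the 110 without SMC1A it was 8.18%. STAG1 fold enrichment at the 27 CTCF-free sites had medians of 4.59 and 4.04 in WT and STAG2-KD of set 1, and 3.51 and 2.82 in set 2. At the 383 sites with CTCF throughout they were 5.57 and 5.71, and 4.30 and 4.03. When the 492 sites were divided into 4 equal groups by WT STAG2 percentile, the share with CTCF in all lists lay between 75.6% and 80.5%, with no order by strength.

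The summits coincided closely. In set 1 the STAG1 summit lay within 100 bp of the WT STAG2 summit at 92.1% of the sites in WT and 93.7% in STAG2-KD, and the CTCF summit at 94.2% of sites with a WT CTCF peak. In set 2, whose peaks were broader, the STAG1 shares were 63.0% and 61.6%. The median STAG1 offset was 33 bp in set 1 in WT and in STAG2-KD alike.

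By annotation the sites were mostly away from promoters. Promoter sites, with the midpoint within 1 kb of an annotated transcript start, numbered 47 (9.55%, 95% Clopper-Pearson interval 7.10% to 12.5%, for counting error only). Introns held 245 (49.8%), exons 26 (5.29%) and intergenic sequence 174 (35.4%). The promoter share was 21.6% over all retained sites, 38.5% over those of like WT STAG2 level, and 11.9% over lost sites without STAG1. Within 2 kb it was 17.5% and with protein-coding transcripts alone 3.66%. The median distance to a transcript start was 12.2 kb, against 6.86 kb for retained sites. A comparison of groups of sites has no replicates, so these shares carry no test.

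**Figure D4:**
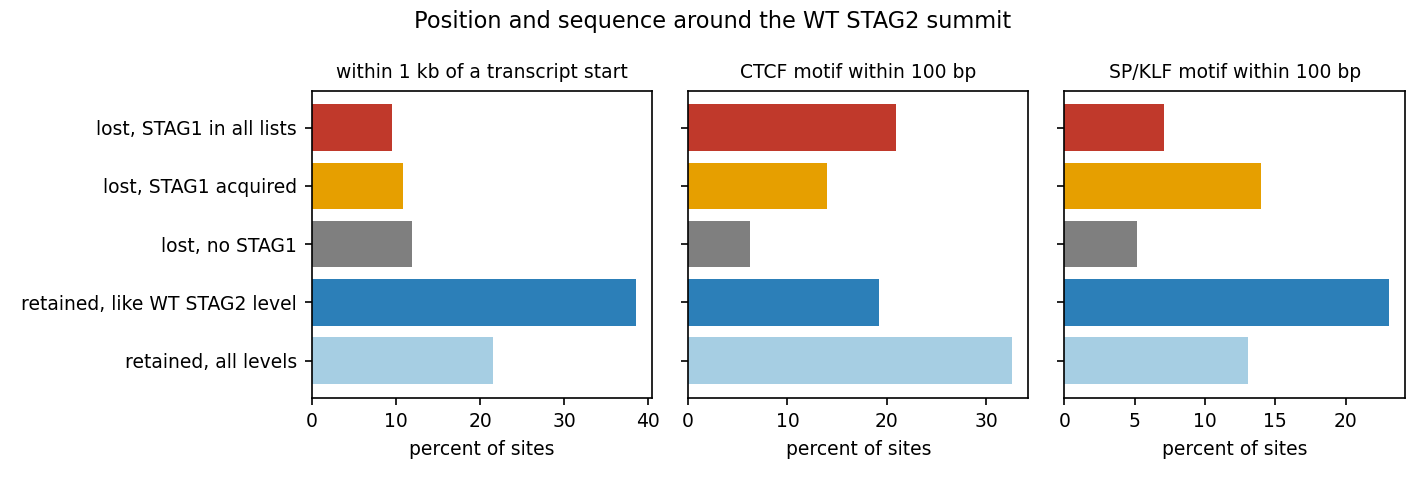
Percent of sites within 1 kb of a transcript start, and with a CTCF or an SP/KLF motif within 100 bp of the WT STAG2 summit, by class of site. Lost sites with STAG1 in all lists stand at 9.55%, 20.9% and 7.11%, retained sites of like WT STAG2 level at 38.5%, 19.2% and 23.1%.

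The median GC content was 45.3% within 100 bp of the summit, against 51.7% at retained sites of like level. The other lost sites were similar, at 43.3% without STAG1 and 46.3% where STAG1 was acquired. GGGCGG, the SP/KLF motif common in CpG-rich promoters, was found at 7.11% of the sites, against 5.2% at lost sites without STAG1, 23.1% at retained sites of like level and 13.2% of the 70129 sites with WT STAG2 in both lists. The ETS motif CCGGAAGT was found at 0 of 492, against 2.52% and 0.663%. The AP-1 motif TGANTCA stood at 5.08% against 9.10% and 8.76%. The E-boxes searched differed in direction, as CACGTG was found at 1.83%, below the 4.05% and 3.02% of the same groups. CATGTG, an E-box read by MITF in melanocytes, was found at 13.6% against 10.7% and 11.8%, and the SOX motif ACAANGG at 11.8% against 9.19% and 10.6%. The other lost sites, without STAG1 and with acquired STAG1, were higher still, at 16.2% and 17.1% for CATGTG and 13.1% and 15.5% for SOX. They had the ETS motif at 0.351% and 0%, and the AP-1 motif at 8.43% and 7.75%. Letters were searched on both strands, and motifs can overlap each other.

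The sites were scattered through the genome. Their number for each 1000 sites with WT STAG2 in both lists ranged from 4.07 on chromosome 11 to 9.98 on chromosome 7, and only 8 of the 492 lay within 10 kb of another. The nearest retained site was a median of 15.4 kb away. PRDM16 held 3 of the sites among its 12 WT STAG2 sites, and 11 genes held 2, among them the long genes AUTS2 and CTNNA2.

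Within 10 kb, 358 of 20090 protein-coding genes (1.78%) had such a site. Among listed genes, 1 of 18 cohesin genes had one, in an intron of STAG1 itself (chr3:136070778-136071083). STAG2 there stood at 4.77 and 4.25 in WT. STAG1 went from 5.12 to 8.33 in set 1 and from 4.60 to 5.38 in set 2, and the centred difference of 0.17 ± 0.30 (SE) did not pass the test (limma, adjusted p = 0.870).

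Of the 18 melanocyte lineage genes, 1 had such a site, in an intron of OCA2, which encodes a melanosome membrane protein (chr15:28266663-28267176). SMC1A went from 5.93 to 12.7 in set 1 and from 5.81 to 12.7 in set 2, with limma's adjusted p = 0.109 without and 0.0288 with the replicate block. STAG1 went from 7.37 to 10.8 and from 5.30 to 6.50, with a centred difference of 0.13 ± 0.30 (SE). Of the 16 dedifferentiation genes found, 1 had a site, in an intron of TNC, an extracellular matrix gene (chr9:117865871-117866417). It had no CTCF peak in any list. No site lay within 10 kb of the 17 MAPK feedback genes, the 25 interferon genes or the 18 melanoma driver genes.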

How the data were processed

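ChIP-seq peak lists of STAG1, STAG2, CTCF and SMC1A in WT and STAG2-KD M14 cells were analysed, 16 lists in 2 replicate sets. Inputs had no list. The authors aligned reads to hg19 and called peaks against input with MACS2; the methods name Bowtie2, SAMtools and Picard, and the submitters' notes of set 2 also name BWA, CASAVA 1.4 and deepTools. The deposited lists give the summit's fold enrichment (a ratio to the expected background) and −log10 p- and q-values. The deposited −log10 q-value was at least 2 in set 1, and the deposited −log10 p-value at least 2 in set 2. Reads per library were not given; summit reads were recovered from fold and p-value.

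STAG2 peaks were merged, and a list counted as present at 1 bp of overlap. Log2 fold enrichment, centred on each list's median over sites with peaks in all 4 lists, was fitted with limma 3.58.1 in R 4.3.3 with Benjamini-Hochberg adjustment over all sites (call threshold 0.05). Scripts were tested on simulated data. Replicate numbers paired the libraries, since the labels give each set its own preparation; deviations of same-numbered libraries correlated at 0.403 (STAG1), 0.654 (CTCF) and 0.380 (SMC1A). The main fit had no replicate block; with it, 1 residual degree of freedom remained and the spread was shared over sites. Shares were compared with exact tests over libraries. Sequences and annotation came from hg19 and GENCODE. Python 3.11.15, pandas 2.3.3, SciPy 1.17.1 and pysam 0.24.0 were used. The sites and gene lists were chosen with earlier results of these data known. Named sites were the 5 with the strongest WT STAG2, the 6 largest STAG1 changes in each direction with 1 sign in both sets, the 4 with the highest CTCF, the 3 at each side of the rule and those near listed genes. KLHDC8A and TBC1D8 were named after their values were seen. Not every named site's sequence is reported here.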

Additional observations from a re-analysis of the deposited data

How the results depend on the processing

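With 2 libraries a group and thresholds that differ between sets, a site counts as lost when its signal falls under the limit, and weak sites need only a small fall. The number of sites, 492, was 783 at a −log10 q-value of at least 5, and between 4155 and 7279 with 1 set left out. The median STAG1 difference, −0.35, was −0.055 without centring and −0.18 with quantile normalization. The CTCF difference was −0.20 without centring, −0.22 with quantile normalization and −0.22 from summit pileup with or without the replicate block, and −0.34 to −0.18 with 1 library left out. For SMC1A it was 0.077 without centring, which turned its direction, −0.033 with quantile normalization, −0.16 at sites with a mean fold enrichment of at least 5, and −0.298 to −0.079 with 1 library left out. The cause was not tested.

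Against 0 calls at these sites, the paired fit with the replicate block gave 45 for STAG1 (9.16% against 8.22% of all sites), 71 for CTCF (18.4% against 13.5%) and 18 for SMC1A (9.78% against 10.6%). Summit pileup gave 14 (2.87% against 0.660%), 20 (5.32% against 2.88%) and 13 (7.07% against 3.72%). With the block it gave 52 (10.7% against 5.37%), 115 (30.6% against 22.6%) and 45 (24.5% against 23.5%). Without centring CTCF had 12, all lower (3.12% against 1.86%), and SMC1A 3, all higher (1.63% against 4.33%). SMC1A had 1, lower, at sites with a −log10 q-value of at least 2 (0.341% against 0.583%). With 1 library left out, where the lone library is assumed to vary like the others, calls numbered 1 to 17 for STAG1, 3 to 19 for CTCF and 0 to 11 for SMC1A. Nothing is read from these counts, since 1 group then holds a single library. In some of these settings the called share was higher over all sites, and in others higher at these sites. The change in CTCF share lay between −8.33 and 0.813 points with 1 library left out, turning to 0.711 without STAG2-KD of set 1 and 0.813 without WT of set 2. That of SMC1A lay between −14.1 and 7.83, turning to 6.10 and 7.83. Paired by set, with the replicate block, they were −3.76 and −3.15 points with an exact p of 0.5, the smallest possible. The CTCF share minus that of retained sites was −8.09 against all of them and 5.02 against those of like WT STAG2 level. The promoter share was 17.5% within 2 kb and 3.66% with protein-coding transcripts. The CTCF motif share was 16.1% within 50 bp, 17.3% around the set 2 summit and 38.4% without the last letter. Of the other settings, 68 values counted as unchanged, for levels by their spread and for tests by their call. For the share tests this says nothing about stability. Their smallest possible p lies above the call threshold, so no call could change. The number of sites with equal numbers of the strongest peaks, 690, also counted as unchanged, although it covered only 19 of the 492. The pileup fits and the settings tried on the peaks still listed were chosen after seeing the data.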
